A study of Mus musculus with 12 samples.

Results

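The interferon-inducible gene families are the genes that a cell switches on when it senses type I, type II or type III interferon. They were followed by RNA-seq in the intestine of mice 48 h after 10 Gy whole-body irradiation. A gene was a member when its symbol began with one of a set of roots (among them Ifit, Ifitm, Oas, Ifi, Isg, Gbp, Iigp, Irgm, Igtp, Gvin, Irf, Stat2, Rsad2 and Usp18) and its mean over the 12 libraries reached 0.1 FPKM, a fragment count scaled by transcript length and by library size. Of 22063 genes in the table, 79 had such a symbol and 74 passed the limit. The members just inside the limit were Gbp10 at 0.16, Ifitm10 at 0.18 and Oas1d at 0.19 FPKM. The 5 left out were Ifitm5 at 0.07, Ifi214 and Ifi44l at 0.04 each, Oas1h at 0.01 and Ifitm7 at 0.00 FPKM. The 74 members comprised 6 IFIT, 5 IFITM, 10 OAS, 10 p200 (PYHIN), 10 GBP, 5 IRG GTPase, 2 GVIN, 9 IRF, 3 IRF2 binding protein and 12 single interferon-induced genes, besides the STAT genes. One of the single genes, Isg20l2, entered by its symbol alone, since it codes for a nucleolar exonuclease of ribosome biogenesis.

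Interferons bind receptors at the cell surface, and the receptor-bound Janus kinases phosphorylate STAT transcription factors. A complex of STAT proteins with IRF9 binds the interferon-stimulated response element (ISRE), whereas STAT dimers bind the gamma-activated site (GAS). The induced proteins act at different steps against microbes. IFIT proteins bind viral RNA, IFITM proteins block membrane fusion, OAS enzymes make the second messenger that activates RNase L, p200 proteins include sensors of DNA, and GBP and IRG GTPases assemble on the vacuoles of intracellular pathogens. In the intestine these genes are active in the epithelium at rest as well as in macrophages and other cells of the lamina propria.

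The mice of every group were C57BL6/J females, bought when 7 to 8 weeks old and acclimated for 1 week. HH_WBI mice were irradiated on a compact linear accelerator at a mean dose rate and an instantaneous dose rate that were both ultra-high, and HH_Ctrl mice were their unirradiated controls. LL_WBI mice were irradiated on a clinical linac with both rates low, and LL_Ctrl mice were the controls of that mode. Each of the 4 groups had 3 libraries. Nothing in the labels ties each library to a separate mouse, so p-values cover the spread among libraries, and that spread may be technical. The irradiation mode, the machine and the handling of each arm cannot be told apart, and in whole intestine fewer cells of a type and less RNA per cell cannot be told apart either.

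The promoters of the members were searched for the elements that interferon signalling acts through. RefSeq promoters (GRCm38.p6) were matched by symbol for 56 of the 74 members, and the 250 bases before each start were searched on both strands for the ISRE core GAAANNGAAA and for the GAS core TTCNNNGAA, which reads the same on both strands. The ISRE core was found in 29 of the 56 members (51.8%), against 936 of all 27025 genes with a promoter (3.46%) and 346 of the 10088 genes whose mean reached 0.5 FPKM (3.43%). It was found in 5 of 5 GBP, 5 of 6 IFIT, 7 of 9 p200, 3 of 4 IRG GTPase and 4 of 7 OAS genes, but in 1 of 5 IFITM, 1 of 8 IRF and 0 of 3 IRF2 binding protein genes. The GAS core was found in 13 of the 56 members (23.2%), against 8.13% of all genes. A match of these letters is a description of the sequence and not evidence of binding.

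Windows of 60 bases around the ISRE core are shown for 9 members whose levels are described below, with the core in capitals. They were chosen to set genes that rose after HH irradiation (Gbp2, Gbp2b, Ifit1, Ifi211, Ifi207, Rsad2) beside genes that were not called (Igtp, Oas1a, Isg15).
Gbp2, chr3:142620579-142620638, plus strand: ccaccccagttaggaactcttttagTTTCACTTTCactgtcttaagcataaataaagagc
Gbp2b, chr3:142594685-142594744, plus strand: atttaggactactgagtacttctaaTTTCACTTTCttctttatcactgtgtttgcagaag
Ifit1, chr19:34640769-34640828, plus strand: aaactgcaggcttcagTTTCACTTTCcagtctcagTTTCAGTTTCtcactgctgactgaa
Ifi211, chr1:173913049-173913108, minus strand: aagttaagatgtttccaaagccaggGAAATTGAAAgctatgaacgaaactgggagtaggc
Ifi207, chr1:173741816-173741875, minus strand: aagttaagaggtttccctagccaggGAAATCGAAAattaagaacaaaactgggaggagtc
Rsad2, chr12:26456538-26456597, minus strand: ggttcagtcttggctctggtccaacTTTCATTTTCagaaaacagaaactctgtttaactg
Igtp, chr11:58199496-58199555, plus strand: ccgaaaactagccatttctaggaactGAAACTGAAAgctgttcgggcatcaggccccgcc
Oas1a, chr5:120907526-120907585, minus strand: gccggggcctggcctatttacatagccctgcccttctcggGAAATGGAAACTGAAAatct
Isg15, chr4:156200856-156200915, minus strand: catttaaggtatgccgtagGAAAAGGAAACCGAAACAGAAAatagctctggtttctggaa
Each window reads 5′ to 3′ along the gene's own strand. Ifit1 had 2 separate cores, Oas1a had 2 that overlap and Isg15 had 3 that overlap. The windows of Ifi211 and Ifi207 were identical at 50 of 60 bases, so these neighbours of the p200 cluster share promoter sequence and are not independent of each other. Of the matched members, the core was present in 13 of 19 that rose after HH irradiation (68.4%) and in 15 of 34 that were tested and not called (44.1%). Isg15, with 3 cores, was not called in any comparison.

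Over all genes, the sums of FPKM ran between 532489 and 620029 per library, which says nothing of the number of reads, and the total depth is unknown. Steps between the low FPKM values gave relative depths of 90.8 to 107.2% of that of LL_Ctrl 1 for the other libraries, apart from LL_WBI 3 at 73.7%. Transcripts of pancreatic acinar and islet genes took 8.53% of the FPKM of LL_WBI 1 and 31.1% of LL_WBI 2, against 0.551 to 1.06% elsewhere, and they lower the FPKM of the other genes in that pair. Enterocyte markers such as Vil1 and Epcam were abundant in every library, with Vil1 between 401.9 and 1100 FPKM. Of the 69 members whose mean reached 0.5 FPKM, 26 had their highest value in LL_WBI 3 (37.7%, against 18.5% of all genes) and 23 in HH_WBI 2 (33.3%, against 4.19%). The lowest value lay in LL_WBI 2 for 25 members (36.2%, against 29.1%) and in an HH_Ctrl library for 31 members (44.9%, against 35.1%). The LL_WBI group thus held both the library with the highest and the library with the lowest values of many members.

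**Figure D1:**
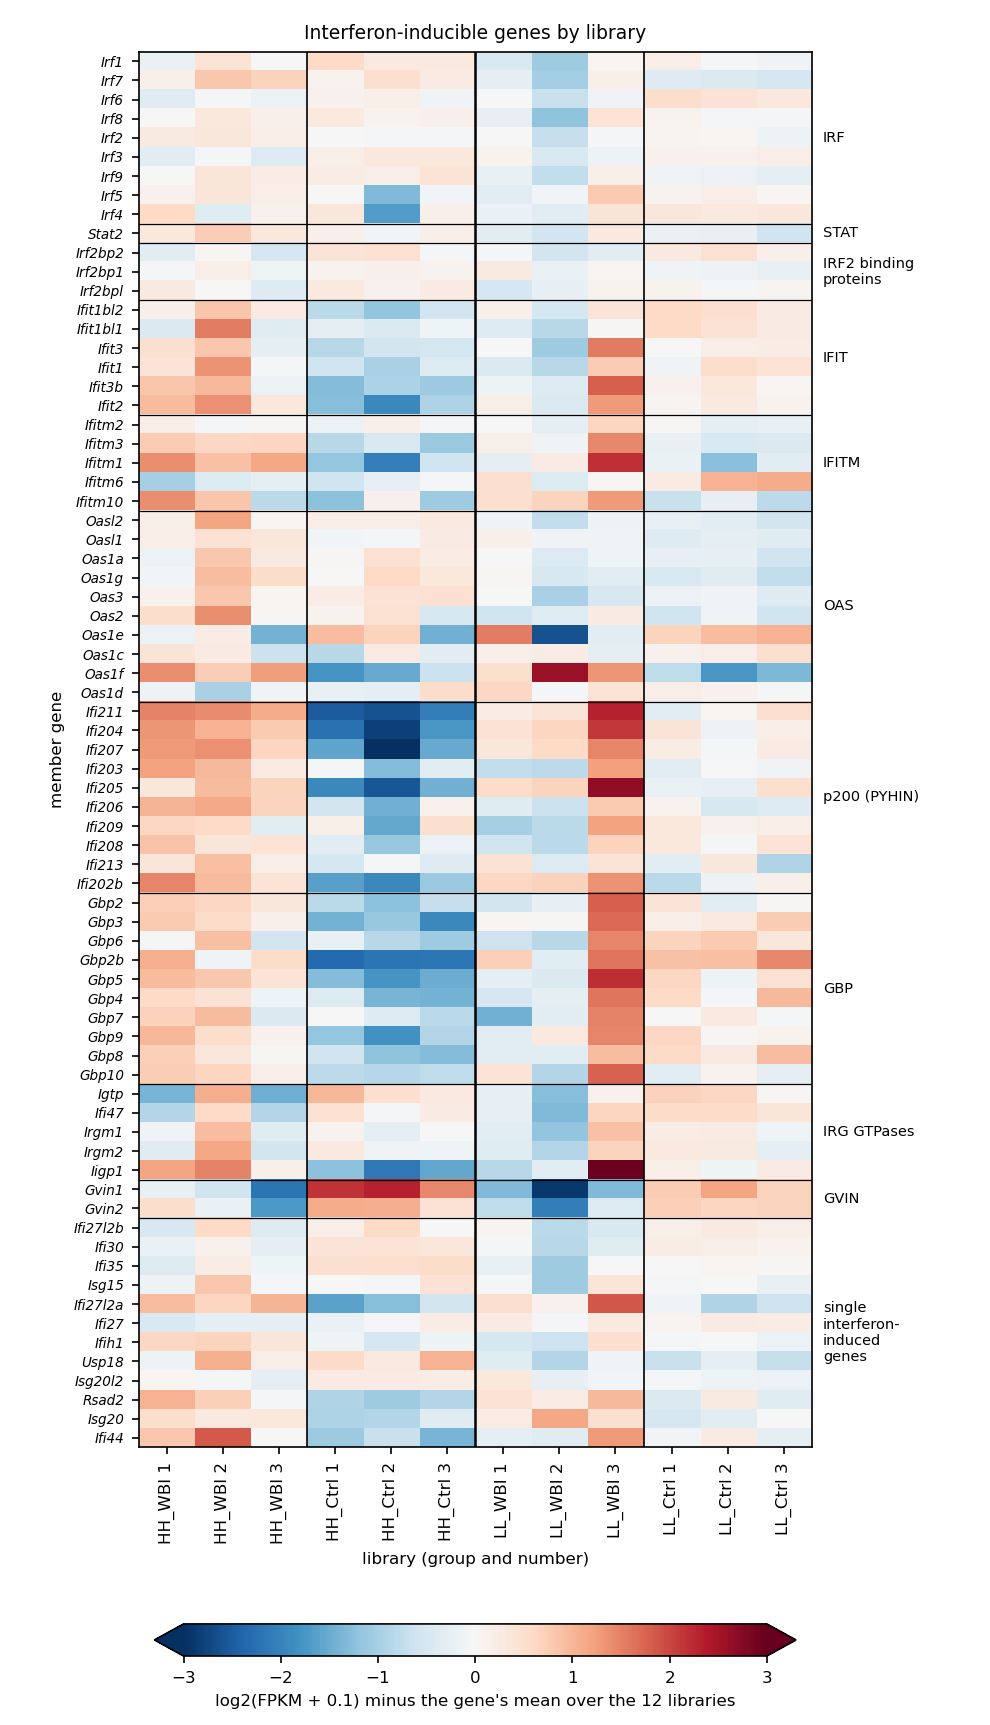
Heat map of 73 members (rows, by family) in the 12 libraries (columns, 3 for each of HH_WBI, HH_Ctrl, LL_WBI and LL_Ctrl), coloured by log2(FPKM + 0.1) minus the gene's mean over the 12 libraries. Most p200 and GBP rows are low in the 3 HH_Ctrl libraries and high in LL_WBI 3, and the Gvin1 row is higher in all 6 control libraries than in any irradiated one.

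HH irradiation was compared with its own controls to find which interferon-inducible families changed 48 h later. Of the members tested, 6 of 8 p200 genes, 7 of 9 GBP GTPases, 4 of 6 IFIT genes and 2 of 4 IFITM genes were called higher in HH_WBI than in HH_Ctrl, and Gvin1 was called lower. Among Stat2, the IRF genes and the OAS genes, Oas1f alone was called by the fold and p limits given next, while Irf2 (0.31, adjusted p = 0.0312) and Irf3 (-0.53, adjusted p = 0.0122) had smaller differences with an adjusted p under 0.05. Of 69 members tested, 25 were called higher (36.2%, against 10.0% of all genes) and 1 lower (1.45%, against 2.38%), where limma had to give a log2 fold change beyond 1 in either direction together with an adjusted p under 0.05. The fold changes are on the scale of log2(FPKM + 0.1) and understate those of low genes. The median log2 fold change was 0.52 over the members and 0.09 over all genes, and became 0.44 and -0.01 after median-ratio scaling. All 3 HH_WBI libraries lay above all 3 HH_Ctrl libraries for 32 members (46.4%, background over all genes 30.1%) and below them for 6 (8.70%, background 21.7%). With a pseudocount of 1, 19 of the 26 remained called, and Gbp4, Gbp8, Gbp9, Ifi203, Ifi206, Isg20 and Oas1f did not. With the GC and length trends removed 20 remained, without Gbp4, Gbp8, Ifi203, Ifi206, Ifit1 and Ifit1bl2, and Gvin2 was called in addition.

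The p200 family showed the largest fold changes. Some of these proteins sense DNA in mouse cells. Ifi211 was at 3.95, 3.77 and 3.004 FPKM in HH_WBI, against 0.157, 0.136 and 0.242 FPKM in HH_Ctrl. In the LL arm it was at 1.59, 1.80 and 7.01 FPKM in LL_WBI, against 1.04, 1.39 and 1.96 FPKM in LL_Ctrl. The HH groups were far apart, with a log2 fold change of 3.73 (SE 0.27, adjusted p = 0.00074), while the LL groups overlapped and their separation rested on LL_WBI 3. Ifi204, a DNA sensor of mouse macrophages, was at 3.33, 2.74 and 2.27 FPKM in HH_WBI, against 0.191, 0.098 and 0.313 FPKM in HH_Ctrl (log2 fold change 3.31, SE 0.34, adjusted p = 0.00108). Its LL_WBI values were 1.77, 2.05 and 5.86 FPKM, against 1.71, 1.12 and 1.49 FPKM in LL_Ctrl. The HH_Ctrl libraries were the 3 lowest of the 12 for both genes. Ifi207 rose by a log2 fold change of 3.13 (SE 0.46, adjusted p = 0.00268) and Ifi205 by 2.64 (SE 0.39, adjusted p = 0.0028). Ifi203 and Ifi206 were also called, so 6 of 8 p200 members tested rose, with a median log2 fold change of 2.10 over the 8. Ifi208 and Ifi209 were not called, at 1.08 and 0.57. Ifi202b and Ifi213 had means below 0.5 FPKM over the HH libraries and were not tested in the main fit. With a limit of 0.1 FPKM, limma called Ifi202b higher (2.51, adjusted p = 0.00326) and did not call Ifi213 (0.82, adjusted p = 0.076). Ifi202b was listed at 0 in HH_Ctrl 2. The calls of Ifi203 and Ifi206 were each lost when single libraries were left out, for example with 22 members called without HH_Ctrl 2. These genes lie in a cluster of close copies, and the split of reads among them is uncertain.

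Among the guanylate-binding proteins tested, 7 of 9 rose in HH_WBI. Gbp2, the most abundant, was at 12.6, 11.9 and 9.72 FPKM in HH_WBI, against 4.34, 3.21 and 4.72 FPKM in HH_Ctrl (log2 fold change 1.47, SE 0.18, adjusted p = 0.0017). It was at 5.26, 6.46 and 26.9 FPKM in LL_WBI, against 10.1, 6.23 and 7.93 FPKM in LL_Ctrl. The HH groups did not overlap, whereas the LL_WBI libraries lay on both sides of their controls. Gbp2b, known as GBP1 in other species, was at 3.64, 1.53 and 2.53 FPKM in HH_WBI, against 0.254, 0.293 and 0.298 FPKM in HH_Ctrl (log2 fold change 2.73, SE 0.34, adjusted p = 0.00171). Its LL_WBI values of 2.82, 1.32 and 5.32 FPKM overlapped the LL_Ctrl values of 3.18, 3.23 and 4.72 FPKM. Gbp2b in HH_Ctrl was therefore below every other library by a wide margin. Gbp5, which promotes inflammasome assembly, rose by 2.24 (SE 0.26, adjusted p = 0.00136) and Gbp3 by 1.99 (SE 0.27, adjusted p = 0.00216). Gbp4, Gbp8 and Gbp9 were also called higher, and the median over the 9 was 1.47. Gbp6 and Gbp7 were not called, at 0.82 and 0.80. Gbp10 was too low for the main fit, and limma called it higher with a limit of 0.1 FPKM (1.33, adjusted p = 0.0139). The call of Gbp4 was lost without HH_Ctrl 2, HH_Ctrl 3, HH_WBI 1 or HH_WBI 2.

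The IFIT proteins recognise viral RNA by its cap or end. Ifit1, which binds RNA whose cap lacks methylation, was at 13.5, 26.4 and 10.1 FPKM in HH_WBI, against 6.77, 5.26 and 7.76 FPKM in HH_Ctrl (log2 fold change 1.22, SE 0.33, adjusted p = 0.0247). Its LL_WBI values were 7.72, 5.74 and 17.8 FPKM, against 9.57, 14.9 and 13.8 FPKM in LL_Ctrl. Ifit1 was lower in HH_Ctrl than in LL_Ctrl in every library, and its call was lost without HH_Ctrl 1, HH_Ctrl 2, HH_WBI 1 or HH_WBI 2. Ifit2, which restricts viruses in mouse neurons, was at 2.65, 3.59 and 1.68 FPKM in HH_WBI, against 0.491, 0.275 and 0.650 FPKM in HH_Ctrl (log2 fold change 2.25, SE 0.37, adjusted p = 0.00415). Ifit1bl2 was at 47.2, 75.6 and 50.4 FPKM in HH_WBI, against 24.3, 18.6 and 28.7 FPKM in HH_Ctrl (log2 fold change 1.26, SE 0.22, adjusted p = 0.00489). The neighbouring Ifit1bl1, in contrast, stood out in HH_WBI 2 alone, with 19.6, 76.3 and 20.5 FPKM in HH_WBI, against 21.8, 19.6 and 24.3 FPKM in HH_Ctrl (0.52, adjusted p = 0.419). Ifit3b rose by 1.65 and Ifit3 stood at 0.97 with an adjusted p of 0.024, just under the fold limit, and the close pair Ifit3 and Ifit3b may share reads. In all, 4 of the 6 IFIT genes rose, with a median of 1.24.

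The IFITM genes did not move together. Ifitm3, the main restriction factor against influenza virus in mice, was at 122.6, 110.1 and 111.6 FPKM in HH_WBI, against 40.4, 52.2 and 33.0 FPKM in HH_Ctrl (log2 fold change 1.48, SE 0.17, adjusted p = 0.00126). Ifitm1 was at 44.4, 31.0 and 38.0 FPKM in HH_WBI, against 7.52, 3.99 and 11.01 FPKM in HH_Ctrl (log2 fold change 2.42, SE 0.34, adjusted p = 0.00233). Ifitm2, the most abundant of the family, was at 103.2, 87.3 and 92.9 FPKM in HH_WBI, against 79.2, 100.98 and 86.9 FPKM in HH_Ctrl (0.09, adjusted p = 0.596). The groups were thus apart for Ifitm3 and Ifitm1 and overlapped for Ifitm2. No ISRE core was found in the searched windows of Ifitm1 and Ifitm3. Ifitm6 was not called at -0.28. Ifitm10, listed at 0 in HH_Ctrl 1, was too low for the main fit. With a limit of 0.1 FPKM limma did not call it (1.19, adjusted p = 0.184).

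The OAS genes, which make 2′-5′ oligoadenylates in response to double-stranded RNA, were abundant in all groups. Oas1a was at 23.1, 46.2 and 31.8 FPKM in HH_WBI, against 26.8, 35.7 and 30.6 FPKM in HH_Ctrl (0.07, adjusted p = 0.841). Oasl2, the most abundant member of the family, was at 74.6, 149.6 and 68.8 FPKM in HH_WBI, against 75.99, 75.8 and 81.4 FPKM in HH_Ctrl (0.24, adjusted p = 0.518). For both genes HH_WBI 2 was high and the other HH_WBI libraries lay among or below the controls. Oas1f, a low member, was at 1.52, 0.936 and 1.36 FPKM in HH_WBI, against 0.081, 0.116 and 0.296 FPKM in HH_Ctrl (log2 fold change 2.44, SE 0.40, adjusted p = 0.00417). It was at 0.757, 3.63 and 1.45 FPKM in LL_WBI, against 0.267, 0.085 and 0.142 FPKM in LL_Ctrl. Oas1f was the OAS gene whose irradiated libraries lay above the controls in both modes, and 1 of the 9 OAS genes tested rose, with a median of 0.24.

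Among the immunity-related GTPases, 1 of 5 rose. Iigp1, a GTPase that attacks the vacuole of Toxoplasma in mouse cells, was at 4.66, 5.76 and 2.23 FPKM in HH_WBI, against 0.795, 0.372 and 0.606 FPKM in HH_Ctrl (log2 fold change 2.59, SE 0.40, adjusted p = 0.00321). Igtp, also known as Irgm3, was at 13.1, 73.8 and 12.4 FPKM in HH_WBI, against 69.8, 49.4 and 42.5 FPKM in HH_Ctrl (-1.20, adjusted p = 0.173). Ifi47 was at 12.9, 35.1 and 12.8 FPKM in HH_WBI, against 32.3, 23.0 and 28.2 FPKM in HH_Ctrl (-0.61, adjusted p = 0.229). HH_WBI 2 was the highest and the other HH_WBI libraries were the lowest of the HH arm for both genes, and without HH_WBI 2 both were called lower (-2.04 for Igtp and -1.09 for Ifi47). Irgm1 and Irgm2, the regulators of the family, stood at 0.22 and 0.07 and were not called. The median over the 5 was 0.07, and turned to -0.03 under median-ratio scaling and to -0.29 with GC and length trends taken out.

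Of the 2 giant GTPases of the GVIN family, Gvin1 fell in HH and Gvin2 was not called. Gvin1, the very large interferon-inducible GTPase, was at 4.70, 3.62 and 1.13 FPKM in HH_WBI, against 25.2, 27.5 and 15.0 FPKM in HH_Ctrl (log2 fold change -2.97, SE 0.49, adjusted p = 0.00415). It was at 2.13, 0.648 and 2.15 FPKM in LL_WBI, against 9.47, 12.7 and 8.85 FPKM in LL_Ctrl (-2.73, SE 0.43, adjusted p = 0.0713). In both modes every irradiated library was below every control. Gvin2 was at 4.09, 2.40 and 0.775 FPKM in HH_WBI, against 6.13, 6.03 and 3.83 FPKM in HH_Ctrl (-1.34, adjusted p = 0.0811), where the groups overlapped. These genes are near copies of one another, so the division of reads between them is uncertain.

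**Figure D2:**
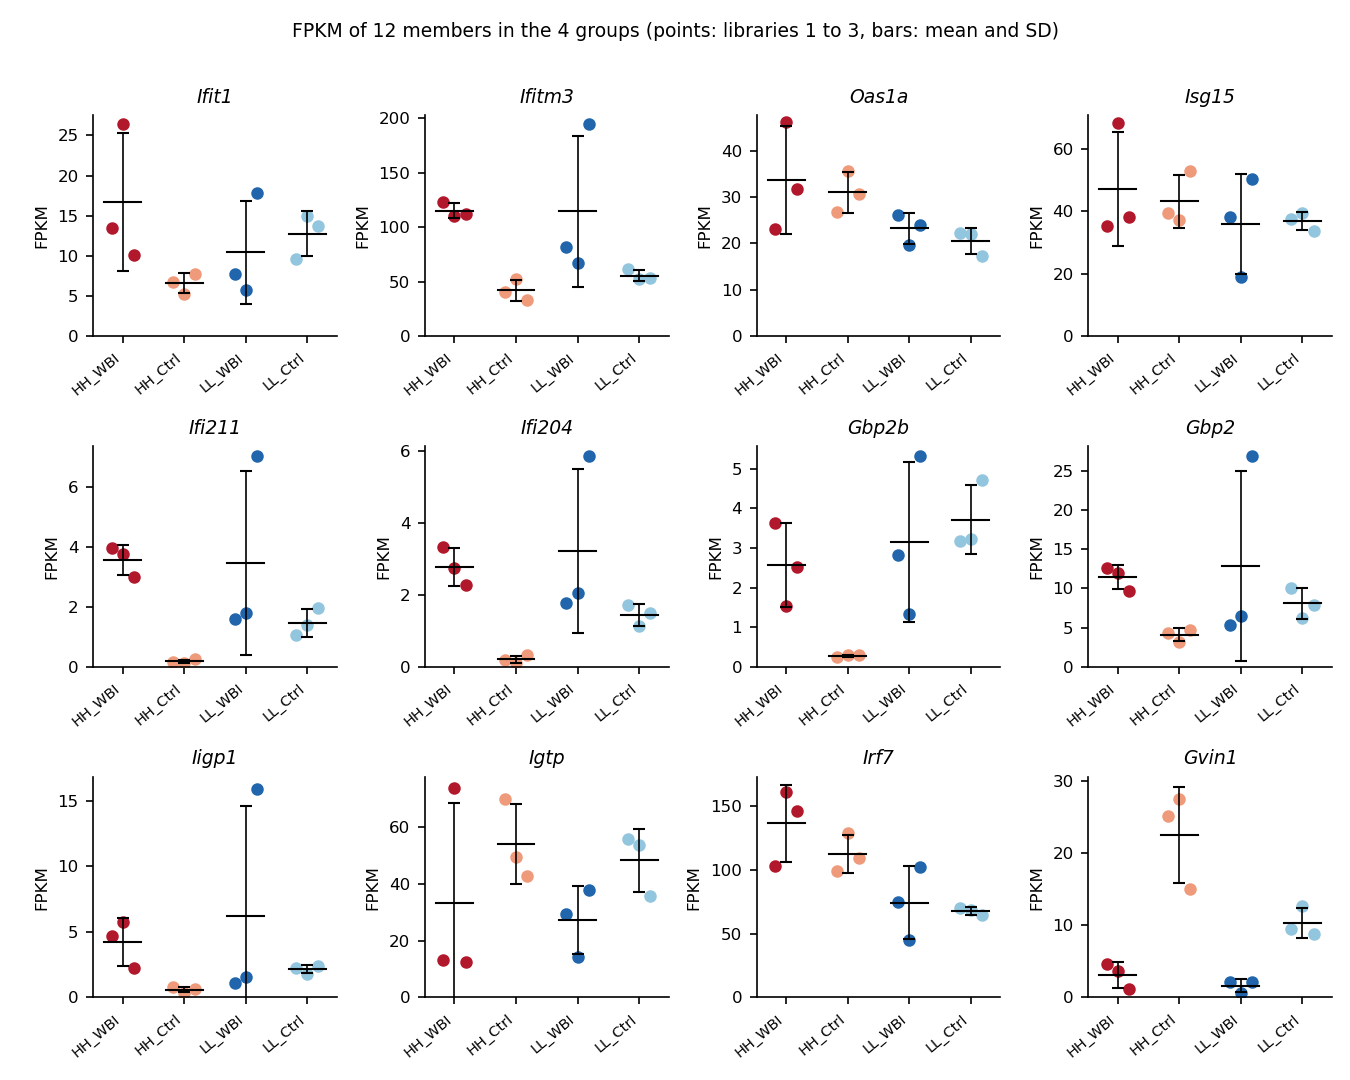
FPKM of 12 members in each library (points), with the mean and SD of each group of 3 (bars), for HH_WBI, HH_Ctrl, LL_WBI and LL_Ctrl on a linear axis. Ifi211, Ifi204 and Gbp2b are near 0 in HH_Ctrl, Oas1a and Isg15 overlap between the HH groups apart from a high HH_WBI 2, and Gvin1 is below its controls in both irradiated groups.

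Stat2, which carries the type I interferon signal to the nucleus, and the IRF transcription factors were not called. Stat2 was at 15.2, 20.4 and 15.2 FPKM in HH_WBI, against 13.5, 11.6 and 14.1 FPKM in HH_Ctrl (0.37, adjusted p = 0.0946). All 3 HH_WBI libraries lay above all 3 HH_Ctrl libraries for Stat2, by less than the fold limit. Irf7, the amplifier of type I interferon production, was at 102.8, 161.3 and 146.1 FPKM in HH_WBI, against 99.1, 128.8 and 109.3 FPKM in HH_Ctrl (0.27, adjusted p = 0.29). Irf1 was at 85.5, 129.4 and 98.0 FPKM in HH_WBI, against 149.3, 120.6 and 119.3 FPKM in HH_Ctrl (-0.33, adjusted p = 0.169). The groups overlapped for both factors. Irf9, the DNA-binding partner of the STAT complex, stood at -0.08. Irf3, which is activated by nucleic acid sensors, was at 19.5, 23.9 and 18.9 FPKM in HH_WBI, against 28.1, 31.0 and 30.8 FPKM in HH_Ctrl (-0.53, adjusted p = 0.0121), and Irf2 stood at 0.31 with an adjusted p of 0.0312. Both passed the adjusted p but not the fold limit. The 9 IRF genes had a median of -0.03, and the 3 IRF2 binding proteins, among which Irf2bp2 stood at -0.52, had a median of -0.26.

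Of the 12 single interferon-induced genes, 4 rose. Ifi27l2a was at 61.1, 50.2 and 64.4 FPKM in HH_WBI, against 10.4, 13.1 and 21.7 FPKM in HH_Ctrl (log2 fold change 2.01, SE 0.25, adjusted p = 0.00171). Its neighbour Ifi27l2b, the most abundant member of all with 397.1, 839.7 and 427.6 FPKM in HH_WBI, against 639.4, 836.2 and 564.3 FPKM in HH_Ctrl, was not called (-0.36, adjusted p = 0.374). This pair, close in sequence and of one family, thus differed in its response. Rsad2, the antiviral enzyme viperin, was at 6.61, 5.29 and 3.10 FPKM in HH_WBI, against 1.66, 1.46 and 1.68 FPKM in HH_Ctrl (log2 fold change 1.52, SE 0.28, adjusted p = 0.00587). Ifi44 rose by 1.93 and Isg20, an exonuclease that degrades viral RNA, by 1.11. Isg15, the ubiquitin-like modifier, was at 35.3, 68.3 and 38.2 FPKM in HH_WBI, against 39.5, 37.4 and 53.0 FPKM in HH_Ctrl (0.08, adjusted p = 0.833), and Usp18, the protease that removes it, stood at -0.26. Ifih1, the RNA sensor MDA5, was at 19.7, 20.6 and 16.4 FPKM in HH_WBI, against 11.8, 9.05 and 11.6 FPKM in HH_Ctrl (0.80, adjusted p = 0.00591). The thiol reductase gene Ifi30 was at 110.5, 137.2 and 102.1 FPKM in HH_WBI, against 165.2, 168.0 and 158.5 FPKM in HH_Ctrl (-0.50, adjusted p = 0.0197). Ifih1 and Ifi30 passed the adjusted p, and both missed the fold limit.

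Markers of some other cells moved with the p200 and GBP genes. In HH_WBI against HH_Ctrl, 9 of 10 macrophage, 6 of 6 endothelial, 6 of 6 fibroblast and 5 of 6 Paneth cell markers were called higher. Over all genes the share was 10.0%. Other lists did not follow. The 6 smooth muscle and 7 B cell markers were all below 0 with none called. Of 8 enterocyte markers 1 was called higher, and 4 of 4 red cell markers tested were called lower. The summed level of the 10 macrophage markers was 352.0 to 372.4 FPKM in HH_WBI, against 52.0 to 147.6 FPKM in HH_Ctrl, and 289.1 to 529.1 FPKM in LL_WBI, against 271.2 to 333.0 FPKM in LL_Ctrl. The 6 fibroblast markers summed to 154.9 to 257.5 FPKM in HH_WBI, against 23.8 to 29.0 FPKM in HH_Ctrl, and to 153.0 to 366.9 FPKM in LL_WBI, against 93.2 to 136.4 FPKM in LL_Ctrl. The HH_Ctrl libraries were thus the lowest of the series for both cell types, as they were for Ifi211, Ifi204 and Gbp2b. The 6 neutrophil markers summed to 2.10 to 5.28 FPKM in HH_WBI, against 0.269 to 0.467 FPKM in HH_Ctrl, and to 3.23 to 22.2 FPKM in LL_WBI, against 2.58 to 4.14 FPKM in LL_Ctrl. Ly6g was listed at 0 in 8 of the 12 libraries and S100a8 and Retnlg in 2 each, all of HH_Ctrl. The sums of the 8 T cell markers ran the other way after irradiation, at 22.4 to 33.98 FPKM in HH_WBI, against 32.1 to 45.6 FPKM in HH_Ctrl. They were 29.9 to 33.2 FPKM in LL_WBI, against 46.2 to 60.5 FPKM in LL_Ctrl. The HH sums overlapped. In HH 1 of the 8 was called lower (12.5%, against 2.38% of all genes) and 1 stood above 0, and none was called in LL. Between the controls the T cell median was -0.50, lower in HH_Ctrl like the macrophage and fibroblast markers. No macrophage, fibroblast, endothelial or T cell marker was listed at 0 in any library. The part of cell makeup in the members' differences was not tested.

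**Figure D3:**
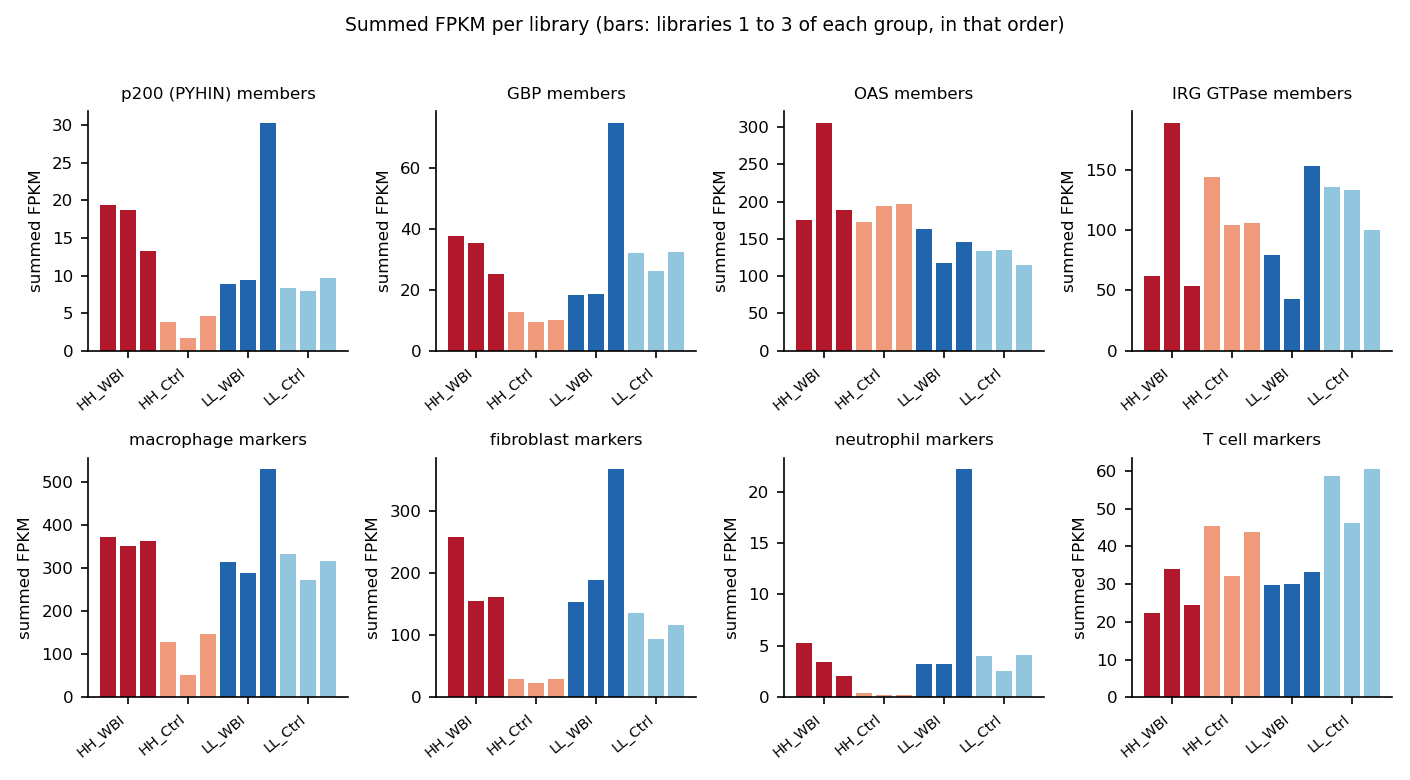
Summed FPKM in each of the 12 libraries (bars, from HH_WBI to LL_Ctrl) for the p200, GBP, OAS and IRG members and for the macrophage, fibroblast, neutrophil and T cell markers, with axes that start at 0. The p200 sum is 13.2 to 19.4 in HH_WBI, against 1.68 to 4.57 in HH_Ctrl, and the macrophage and fibroblast sums are lowest in HH_Ctrl as well, while the OAS sum of HH_Ctrl is not low.

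LL irradiation was compared with its own controls in the same way. No interferon-inducible member was called in either direction by limma (backgrounds over all genes 0.170% higher and 0.0772% lower). At an unadjusted p under 0.05 there were 13 of 69 members (18.8%, against 18.3% of all genes). The median log2 fold change was -0.07 over the members and -0.12 over all genes, and the members' median changed sign to 0.05 under median-ratio scaling. LL_WBI lay above LL_Ctrl without overlap for 8 members (11.6%, background 9.90%) and below for 9 (background 19.0%). The members' shares of calls and of separations above the controls were thus near those of all genes.

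Within the LL arm the members nearest to a call were Gvin1 and Oas1f, whose values are given above. Gvin1 stood at -2.73 and was called lower when LL_WBI 3 or LL_WBI 1 was left out (-2.996, adjusted p = 0.0308, without LL_WBI 3). Oas1f stood at 2.75 (SE 0.58, adjusted p = 0.139) and was called higher without LL_WBI 1 (3.24, adjusted p = 0.032). Next came Gvin2, at 1.61, 0.583 and 2.09 FPKM in LL_WBI, against 4.68, 4.40 and 4.49 FPKM in LL_Ctrl (-1.76, adjusted p = 0.16). Ifi27l2a was at 44.7, 34.9 and 116.2 FPKM in LL_WBI, against 29.1, 17.1 and 20.6 FPKM in LL_Ctrl (1.38, adjusted p = 0.208), and Isg20 at 3.25, 6.28 and 3.86 FPKM, against 1.90, 2.17 and 2.78 FPKM (0.90, adjusted p = 0.206). The groups did not overlap for any of these genes. Ifitm3 was at 81.45, 67.3 and 194.3 FPKM in LL_WBI, against 61.1, 52.6 and 52.8 FPKM in LL_Ctrl (0.88, adjusted p = 0.272).

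LL_WBI 3 differed from the other LL_WBI libraries in most families. Iigp1 was at 1.08, 1.59 and 15.9 FPKM in LL_WBI, against 2.27, 1.82 and 2.37 FPKM in LL_Ctrl, and Gbp5 was at 1.29, 1.16 and 7.81 FPKM, against 2.53, 1.44 and 2.26 FPKM. For both genes LL_WBI 3 was above all controls and the other LL_WBI libraries, which contain pancreatic RNA, were below them. The GBP members summed to 18.3, 18.7 and 74.8 FPKM in LL_WBI, against 32.0, 26.3 and 32.4 FPKM in LL_Ctrl. Without LL_WBI 3 the members called were 2 of 67, both lower (Gbp6 and Gvin1), against 98 genes higher and 26 lower of 12807. The GBP median was then -0.88 in place of -0.17. With LL_WBI 3 as the only LL_WBI library, the median log2 fold change was 0.48 over the members and 0.03 over all genes. With the pancreatic genes removed and the libraries rescaled, Gvin1 alone was called, against 35 genes higher and 9 lower of 13067. The GBP median in that fit was 0.03. Marker sums of other cells were highest in LL_WBI 3 as well. The Paneth cell sum was 6091, 5665 and 25091 FPKM in LL_WBI, the smooth muscle sum 447.2, 455.9 and 1204 FPKM, the fibroblast sum 153.0, 189.3 and 366.9 FPKM, the macrophage sum 314.6, 289.1 and 529.1 FPKM and the neutrophil sum 3.23, 3.29 and 22.2 FPKM. Their part in the values of LL_WBI 3 was not tested.

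The controls of the 2 modes were compared because each response rests on its own. In unirradiated HH_Ctrl intestine 4 of 6 p200, 7 of 9 GBP and 3 of 6 IFIT genes tested were called lower than in LL_Ctrl intestine, and Usp18 and Gvin1 higher. Of 66 members tested, 2 were called higher in HH_Ctrl (3.03%, against 2.31% of all genes) and 17 lower (25.8%, against 11.9%). The median was -0.40 over the members and -0.13 over all genes, -0.26 and 0.01 under median-ratio scaling, and 0.01 and 0.03 once each library's trends on GC and length were taken out. In that last setting 2 members were called higher and 7 lower, against 469 and 629 of 12595 genes. The IFIT calls were all lost (0 of 6, median -0.54), 3 of 9 GBP genes were called, and 4 of 6 p200 genes were called while the other 2 stood above 0. HH_Ctrl lay above LL_Ctrl without overlap for 16 members (24.2%, background 19.5%) and below for 25 (37.9%, background 38.2%).

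Gbp2b showed the largest difference between the controls (log2 fold change -3.30, SE 0.21, adjusted p = 9.09e-05), followed by Ifi211 (-2.47, SE 0.30, adjusted p = 0.000654) and Ifi204 (-2.40, adjusted p = 0.00109). Their levels in every library are those given above. The family medians were -1.58 for GBP, -2.09 for p200 and -1.10 for IFIT genes. Usp18, which restrains interferon signalling, was at 18.02, 14.9 and 24.9 FPKM in HH_Ctrl, against 7.62, 9.84 and 7.40 FPKM in LL_Ctrl (1.19, SE 0.20, adjusted p = 0.00255). The call of Usp18 was lost without HH_Ctrl 3 and that of Gvin1 (1.09) without HH_Ctrl 1, HH_Ctrl 2 or LL_Ctrl 3. None of the 8 OAS genes tested was called, but their median was 0.53, and Oasl2 (0.60, adjusted p = 0.00257) and Oas3 (0.59, adjusted p = 0.00401) passed the adjusted p without the fold limit. Irf7 did so too, at 99.1, 128.8 and 109.3 FPKM in HH_Ctrl, against 70.4, 68.3 and 64.6 FPKM in LL_Ctrl (0.72, adjusted p = 0.00137). Within the unirradiated intestine the families thus did not order the groups alike. Macrophage (8 of 9 tested), fibroblast (6 of 6), endothelial (5 of 6) and Paneth cell (6 of 6) markers were called lower in HH_Ctrl as well. Over all genes the share was 11.9%, and the macrophage and fibroblast sums are given above. The 6 smooth muscle markers, in contrast, all stood above 0 (median 0.49), with none called.

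The HH response depended on which controls were used. With LL_Ctrl in place of HH_Ctrl, 6 members were higher in HH_WBI (Ifi206, Ifi211, Ifi27l2a, Ifitm1, Ifitm3 and Oas1f) and 3 lower (Gvin1, Ifitm6 and Oas1e), of which 7 were among the 26 called against HH_Ctrl. Ifi211 then stood at 1.26, Ifitm1 at 1.75, Ifitm3 at 1.05, Oas1f at 2.41 and Gvin1 at -1.88. Gbp2b stood at -0.57 and Gbp8 at -0.23, so their direction turned, as did that of Ifit1bl2 at -0.042. The GBP median was 0.07 with no member called, and the p200 median was 0.93. With all 6 controls as the reference, 8 of 69 members were higher and 1 lower, against 514 and 278 of 12787 genes. All 9 of these members were among the 26. LL_WBI set against HH_Ctrl gave 12 of 68 members higher and 3 lower, against 1323 and 289 of 12902 genes.

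The irradiated groups were also compared directly. Between HH_WBI and LL_WBI no member was called by limma, and neither was any other of the 13049 genes tested. Of 71 members tested, 8 had an unadjusted p under 0.05 (11.3%, against 11.2% of all genes). The median was 0.30 over the members and -0.00 over all genes. HH_WBI lay above LL_WBI without overlap for 6 members (8.45%, background 8.42%) and below for 1 (1.41%, background 8.64%). Irf7 had the smallest p, with 102.8, 161.3 and 146.1 FPKM in HH_WBI, against 75.0, 45.4 and 102.4 FPKM in LL_WBI (0.93, SE 0.33, adjusted p = 0.415). Ifi27 was the member below, with 23.0, 26.2 and 25.6 FPKM in HH_WBI, against 37.4, 30.2 and 38.8 FPKM in LL_WBI (-0.50, SE 0.19, adjusted p = 0.421). The other 6 with an unadjusted p under 0.05 stood above 0, namely Stat2 (0.66), Usp18 (0.83), Ifih1 (0.76), Oas1g (0.71), Oas3 (0.82) and Oasl2 (0.81), with adjusted p values of 0.42 to 0.43. Ifi211 was at 0.36 and Gbp2b at -0.16. Without LL_WBI 3 a single member of 71, Ifih1, was called higher in HH_WBI, against 168 of 12954 genes. The count of members at an unadjusted p under 0.05 was 2 of 71 with pancreatic genes removed (2697 of 13157 genes). It was 1 of 70 without HH_WBI 2 (890 of 13062 genes), but 10 of 71 with GC and length trends removed (1784 of 13049). Without LL_WBI 3 that count was 27 of 71 (2131 of 12954 genes).

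Whether the HH and LL responses differed was tested in one fit over the 12 libraries, as the HH log2 fold change minus the LL one, with an adjusted p under 0.05 as the call. The response was higher in the HH arm for 5 of 69 members (7.25%, against 6.73% of all genes), and lower for none. They were Gbp2b (3.14, SE 0.61, adjusted p = 0.0181), Ifi211 (2.83, SE 0.65, adjusted p = 0.028), Ifi207 (2.47, SE 0.59, adjusted p = 0.0311), Ifi204 (2.38, SE 0.59, adjusted p = 0.0353) and Ifit1bl2 (1.70, SE 0.36, adjusted p = 0.0213). All 5 overlapped between HH_WBI and LL_WBI, and all 5 were called lower in HH_Ctrl than in LL_Ctrl. Gbp8 (1.88, adjusted p = 0.05), Ifit2 (2.07, adjusted p = 0.0575) and Gbp3 (1.81, adjusted p = 0.072) came next. Median-ratio scaling gave 7 members higher and 1 lower, against 851 and 425 of 12905 genes. Taking out the GC and length trends gave 2 higher and 1 lower, against 207 and 171 of 12921 genes. Without LL_WBI 3 the count was 24 of 68 members, against 1842 of 12865 genes called higher. It was 0 without LL_Ctrl 2 (107 of 12917 genes higher) or LL_Ctrl 3 (65 of 12919). Without HH_Ctrl 2 it was 1, Gbp2b (336 of 12959 genes higher). For Gvin1, which was lower in both modes, the difference was -0.24 (SE 0.73, adjusted p = 0.888), and for Ifitm3 it was 0.59 (SE 0.45, adjusted p = 0.466). The HH and LL comparisons share no libraries, and of the 69 members 29 were above 0 in both, 19 in HH only, 3 in LL only and 18 below 0 in both.

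**Figure D4:**
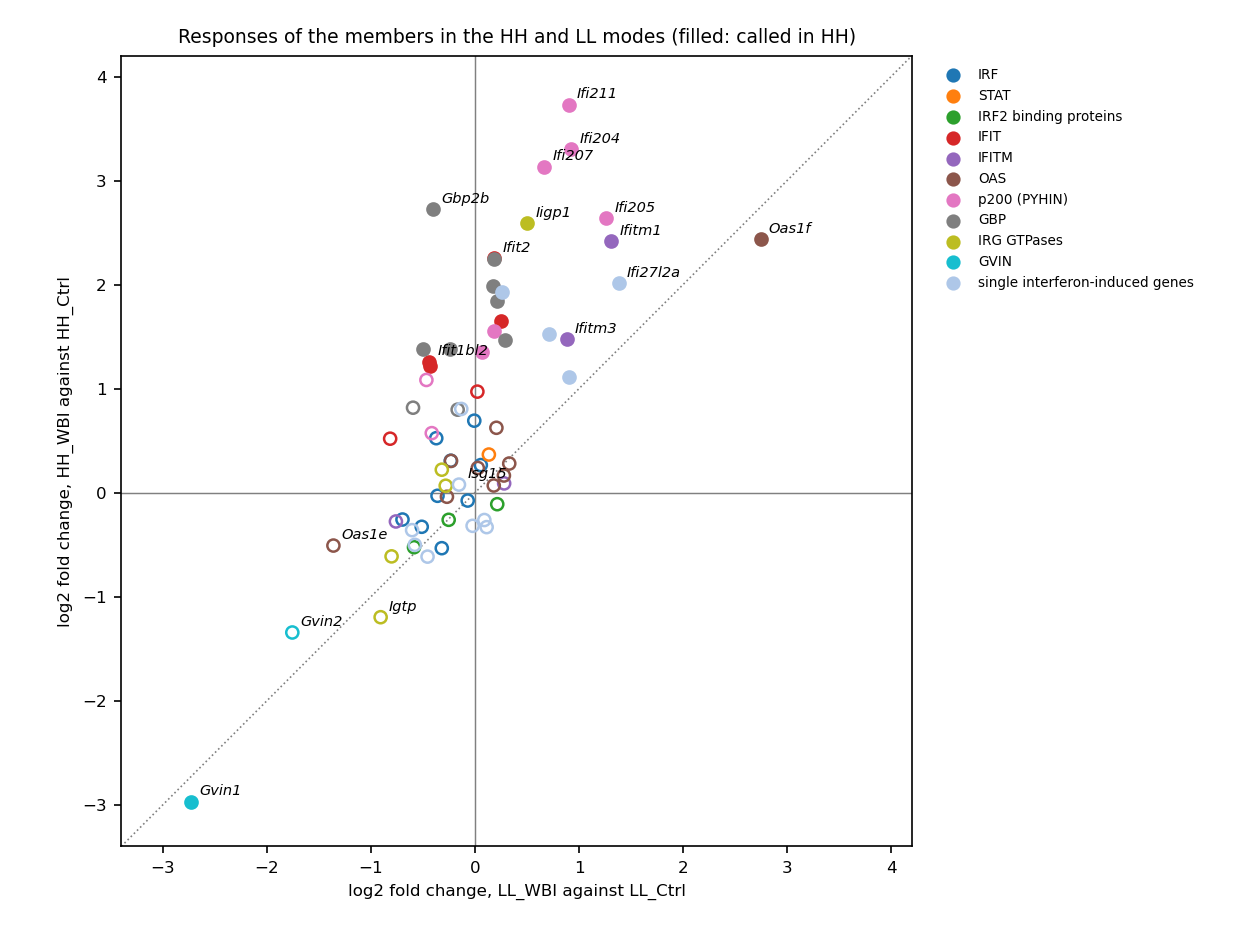
Log2 fold change of LL_WBI against LL_Ctrl (horizontal axis) and of HH_WBI against HH_Ctrl (vertical axis) for 68 members tested in both, coloured by family, with filled points for members called in HH and a dotted line where the responses are equal. The p200, GBP and IFIT genes lie above the line, with Ifi211 at 0.90 and 3.73, and Gvin1 lies at the lower left with -2.73 and -2.97.

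The rest of the pathway was examined through lists of ligands, receptors, sensors, targets and inhibitors. Of 25 ligand genes 1 was tested, Il18, which was not called in any comparison, and Ifng was at most 0.228 FPKM, in LL_WBI 3. None of the 9 receptors and kinases was called in HH, although Jak1 (0.73, adjusted p = 0.00302) and Jak2 (0.91, adjusted p = 0.0115) passed the adjusted p. Jak1 was at 31.5, 31.1 and 30.3 FPKM in HH_WBI, against 21.1, 16.9 and 18.1 FPKM in HH_Ctrl, and at 28.8, 25.0 and 32.8 FPKM in LL_WBI, against 29.7, 32.0 and 29.9 FPKM in LL_Ctrl. Its responses differed by 0.82 (SE 0.18, adjusted p = 0.025), with HH_Ctrl as the low group. Of 14 sensors and adaptors, 4 rose in HH (28.6%, against 10.0% of all genes), and none was called in LL. Those that rose were Tlr7 (2.09), the cytosolic DNA sensor Aim2 (1.59), the kinase Tbk1 (1.11) and the adaptor Sting1 (1.08). Between the controls 2 of the 14 were called lower in HH_Ctrl (14.3%, against 11.9% of all genes), with a median of -0.34 against -0.13. None was called between HH_WBI and LL_WBI. The difference of the responses was called for 2 of 14, higher in the HH arm (14.3%, against 6.73% of all genes).

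Interferon-induced genes that the symbols do not catch were also counted. Of 55 tested, 13 rose in HH (23.6%, against 10.0% of all genes) and none fell, with a median of 0.41, and none was called in LL, where 3 had an unadjusted p under 0.05. Cxcl10, a chemokine that attracts T cells, was at 5.91, 8.03 and 5.63 FPKM in HH_WBI, against 1.64, 1.27 and 1.01 FPKM in HH_Ctrl (2.24, SE 0.23, adjusted p = 0.00108). It was at 3.23, 1.73 and 23.3 FPKM in LL_WBI, against 5.89, 2.83 and 4.61 FPKM in LL_Ctrl, so that LL_WBI 3 again stood alone. Phf11d (2.18), Tgtp2 (1.89) and Epsti1 (1.07) rose in HH as well. Between the controls 9 of 54 were lower in HH_Ctrl (16.7%, against 11.9% of all genes, with a median of -0.06 against -0.13), among them Cxcl9 (-2.91), Trim30d (-1.15), Parp9 (-1.006) and Nmi (-1.006). The difference of the responses was called for 5 of 55, all higher in the HH arm (9.1%, near the 6.73% of all genes).

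The genes of the immunoproteasome and of antigen processing did not follow. Of 10 tested, 2 fell in HH, where 2.38% of all genes were called lower, and the median was -0.56 against 0.09 over all genes. In LL all 10 were below 0 with none called, and the median was -0.56 against -0.12 over all genes. Pancreatic RNA lowers the FPKM of other genes in LL_WBI 1 and LL_WBI 2, and its part in the LL values of this list was not tested. Psmb10, an inducible catalytic subunit, was at 46.7, 79.2 and 55.7 FPKM in HH_WBI, against 122.4, 121.1 and 126.4 FPKM in HH_Ctrl (-1.06, SE 0.18, adjusted p = 0.00474). It was at 105.7, 51.3 and 86.8 FPKM in LL_WBI, against 135.4, 146.4 and 117.4 FPKM in LL_Ctrl. Psme2, a subunit of the proteasome activator, fell by 1.03 on the log2 scale in HH (SE 0.16, adjusted p = 0.00309). Every irradiated library was below every control of its mode for Psmb10. Of 6 inhibitors of interferon signalling, Socs3 rose in HH, with 27.2, 18.1 and 26.9 FPKM in HH_WBI, against 5.16, 5.70 and 13.3 FPKM in HH_Ctrl (1.68, SE 0.35, adjusted p = 0.00971). Ptpn2, a phosphatase of the STAT proteins, was called lower in HH_Ctrl than in LL_Ctrl (-1.20) and its responses differed by 1.12 (adjusted p = 0.038).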

How the data were processed

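Intestinal RNA from 4 groups of 3 libraries was sequenced. The labels speak of ribosomal RNA depletion and a stranded library, whereas the study's methods describe oligo(dT) selection, and this difference was not resolved. The authors deposited FPKM values per gene, estimated with StringTie 1.3.1. Bowtie 0.12.2 and 3 build names (mm8, GRCm39, mm39) stand in the submitters' processing notes without a stated role. No column was left unused. Read counts were not used here, so the total depth is unknown and no interval from counts is given.

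Values were analysed as log2(FPKM + 0.1) in limma 3.58.1 (R 4.3.3, eBayes with trend) for genes whose mean over the libraries of a fit was at least 0.5 FPKM. Only the libraries compared entered a fit, except for the difference of the HH and LL responses, which used all 12. Benjamini-Hochberg adjustment covered all genes tested, and the code was tested on simulated data. Summaries and figures used Python 3.11.15, pandas 2.3.3, numpy 2.4.6, scipy 1.17.1 and matplotlib 3.10.9. GC content and length were taken from reference transcripts for 21973 genes (99.59%), all 74 members included.

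The members and all gene lists were chosen with earlier results of these data known. Members were named by rule: in each family the 2 most abundant and the one with the smallest p in each comparison, the up to 5 called with the largest change, 10 fixed genes (1 of which is counted among the members but not reported here), and up to 4 genes of each pathway list with the smallest p. Others named (such as Aim2, Sting1, Ifi203, Ifi208, Ifi209, Gbp4, Gbp6, Gbp9, Ifi44, Irgm2, Oas1a) complete a family or list, and their values were known when they were chosen. Alternatives varied the pseudocount, the filter, scaling, pancreatic genes, GC and length, the controls, the replicate block and the libraries. A fit with LL_WBI 3 as the only LL_WBI library was added after seeing the data.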

Additional observations from a re-analysis of the deposited data

Results flagged for a closer look

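The HH and LL responses differed for 5 members by the term for the difference in the fit of all 12 libraries. Gbp2b had the largest difference at 3.14, with a log2 fold change of 2.73 in HH and -0.41 in LL. Ifi211 differed by 2.83 (3.73 in HH and 0.90 in LL), Ifi207 by 2.47 (3.13 and 0.67), Ifi204 by 2.38 (3.31 and 0.92) and Ifit1bl2 by 1.70 (1.26 and -0.44). All 3 HH_WBI libraries lay above all 3 HH_Ctrl libraries for each of them. The share of members with a higher response in HH, 7.25%, was close to the 6.73% of all genes. With LL_Ctrl as the controls of HH_WBI, Ifi211 stood at 1.26 and Gbp2b at -0.57.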

How the results depend on the processing

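Against its own controls, HH irradiation gave 26 called members. The count was 19 with a pseudocount of 1, 21 with GC and length trends removed and 22 to 29 when a library was left out. It was 28 with no filter on low values and 29 with a limit of 0.1 FPKM. But it was 9 with LL_Ctrl in place of HH_Ctrl and 9 with all 6 controls. For LL irradiation, where none was called, the count was 1 with a pseudocount of 1 and 1 with pancreatic genes removed. The LL count was 2 with all 12 libraries in one fit, 3 with all 6 controls and 15 with HH_Ctrl as controls. It was 0 to 2 when a library was left out. Between the controls, 19 members were called, against 8 with a pseudocount of 1, 39 without the fold limit and 9 with GC and length trends removed. Between HH_WBI and LL_WBI the count was 0 to 1 when a library was left out. The 5 differences of response became 2 with a pseudocount of 1, 8 with median-ratio scaling and 3 with GC and length trends removed. Their count ran from 0 to 24 when a library was left out. The cause was not tested.

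Of 1689 values for the named genes under the alternatives, 1464 kept their direction and their side of the threshold, 105 lost a call, 91 gained one and 29 changed sign, 6 of them called in at least 1 of the settings. Over all members tested in LL, 32 stood above 0, against 16 without LL_WBI 3, and in HH_WBI against LL_WBI 56 did, against 22 with LL_WBI 3 alone. Of the 6 that were called and changed sign, Gbp2b, with the controls of the other mode, stood at -0.57 in HH and 2.89 in LL, Gbp8 at -0.23 and Ifit1bl2 at -0.042 in HH, and Usp18 at -1.10 in LL, while Gbp7 stood at 1.41 in LL with LL_WBI 3 alone. Deviations of libraries with the same number correlated at -0.108 to 0.276, and those of libraries with different numbers at -0.318 to 0.278. With 3 libraries in a group these correlations cannot decide whether the numbers pair the libraries. With a replicate block, 1 member was called in LL, 27 in HH, 19 for HH_Ctrl against LL_Ctrl, 0 for HH_WBI against LL_WBI and 4 for the difference, of which Gbp2b and Ifi211 were among the 5 called without the block, while Ifi204, Ifi207 and Ifit1bl2 were lost and Gbp3 and Gbp8 gained. The total depth is unknown, so how far it limits the members below 1 FPKM cannot be given.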
